A study of Mus musculus with 12 samples.

Results

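The liver of calorie-restricted (CR) mice was compared between day 25 and day 30 of restriction, a span in which the study looked for a transition in hepatic protein synthesis. The comparison covers the 6 libraries of CR mice out of 12 in the series, 3 at day 25 and 3 at day 30, chosen by their labelled diet and day and not by any measured value. The 6 libraries of control (Con) mice, 3 at each day, serve only as background for what 5 days of time did without restriction. All mice were male C57Bl/6J of 6 weeks at the start. They lived in single cages and ate ad libitum (Con) or 30% less (CR). According to the study's methods, CR mice received a fortified form of the Con diet once a day. Heavy water before killing is described there for the mice in general, not for CR mice alone. Different mice were killed at each day, so a day difference is between animals, not within them. The hour at which tissue was taken is not given in the sources used here. Expression is given as FPKM, a read count scaled for the length of the exons and the depth of the library. Differences are on the log2(FPKM + 1) scale with the standard error (SE) of the limma model, and a gene was called at a Benjamini-Hochberg adjusted p under 0.1 over 10593 genes, those that reached 1 FPKM in no fewer than 3 of the 12 libraries.

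The liver stores and releases fuel. After a meal it turns sugar into fatty acids through acetyl-CoA carboxylase and fatty acid synthase, and in fasting it burns fatty acids and makes ketone bodies. The male mouse liver also carries a sex-specific programme that depends on the pulses in which growth hormone is secreted, with high major urinary proteins (Mups) and male-type P450 enzymes and with female-type P450 enzymes kept low. Calorie restriction is known to alter hormone levels and the timing of meals.

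The CR libraries held 15748611 to 21195654 reads at day 25 and 19449267 to 23349281 at day 30, recovered from the steps of the low FPKM values. Hepatocyte markers were high in every CR library, with a summed FPKM of 61482 to 67857 at day 25 and 67265 to 80371 at day 30 (exact 2-sided permutation test, p = 0.2, where 3 against 3 mice cannot go below 0.1). All 12 macrophage markers were higher at day 30, none of them called, with a summed FPKM of 53.3 to 68.5 at day 25 and 69.7 to 100.9 at day 30 (exact permutation p = 0.1), and none of the 12 was at 0. Their part in the results was not tested. In bulk tissue a change in the share of a cell type and a change of RNA per cell cannot be told apart. Lymphocyte, neutrophil, adipose and pancreas markers were each below an FPKM of 1 in all 6 CR libraries.

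Few genes differed between the days of restriction. Of 10593 genes, 34 were called (0.321%), with 13 higher at day 30 (0.123%) and 21 lower (0.198%). Of these, 15 had an absolute difference of at least 1 in log2(FPKM + 1) (0.142%), 7 higher (0.0661%) and 8 lower (0.0755%). In mean FPKM itself further calls differed more than 2-fold, among them Abcb1a (1.97 to 4.79) and Epha2 (8.03 to 3.62). The median difference over all tested genes was -0.01, 97.1% of genes lay within 0.5 of 0, and 48.4% of genes were above 0 (54.3% in Con mice). In Con mice no gene was called in limma over the same 5 days (0% of 10593, smallest adjusted p = 0.179, 0 called by voom as well). An unadjusted p under 0.05 was reached by 765 genes in Con mice (7.22%) and by 917 in CR mice (8.66%). The share of calls that were higher was 38.2%, and it was 50% after scaling to TPM or after quantile normalization and 45.1% after median-ratio scaling. The count depended on single libraries. It fell to 2 without mouse 1 of CR day 25, to 14 and 11 without mice 2 and 3 of that day, to 3 and 16 without mice 1 and 2 of CR day 30, and to 8 without mouse 2 of Con day 25, while the remaining 6 libraries left 26 to 45 calls. Elovl6 and A1bg were called in all 12 fits that left out 1 library. A1bg passed the filter on low values only through the day-30 CR mice, and these fits kept that filter. Its direction was thus fixed by the filter, and its calls carry no support of their own.

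In each of the 34 called genes the CR mice of the 2 days did not overlap, as in 14.7% of all tested genes. The genes were called on the same values, so this is no added support. A1bg, Slc22a27 and Gm3776 passed the filter on low values only through the day-30 CR mice, so for them the filter fixed it. The fold between the nearest mice of the 2 days ran from 1.26 for Zc3h8 to 4.14 for A1bg. Rises ran from 0.48 to 1.84 and falls from -0.52 to -2.69. In Con mice 28 of the 34 had a day difference of the same sign, 11 of them at an unadjusted p under 0.05, while 65.2% of all tested genes had the same sign in both diets. For 24 of the 34 (70.6%) the CR mean lay farther from the mean of all Con mice of both days at day 30 than at day 25. This held for 53.1% of all tested genes. The Con mean was 1 value for both days, so a shift shared with Con mice was not taken out. The last genes inside the threshold were Shb (adjusted p = 0.0886) and Gsta4 (0.0988), and the genes just outside were Cldn14, Pklr and Ccl9 (each 0.1003).

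**Figure D1:**
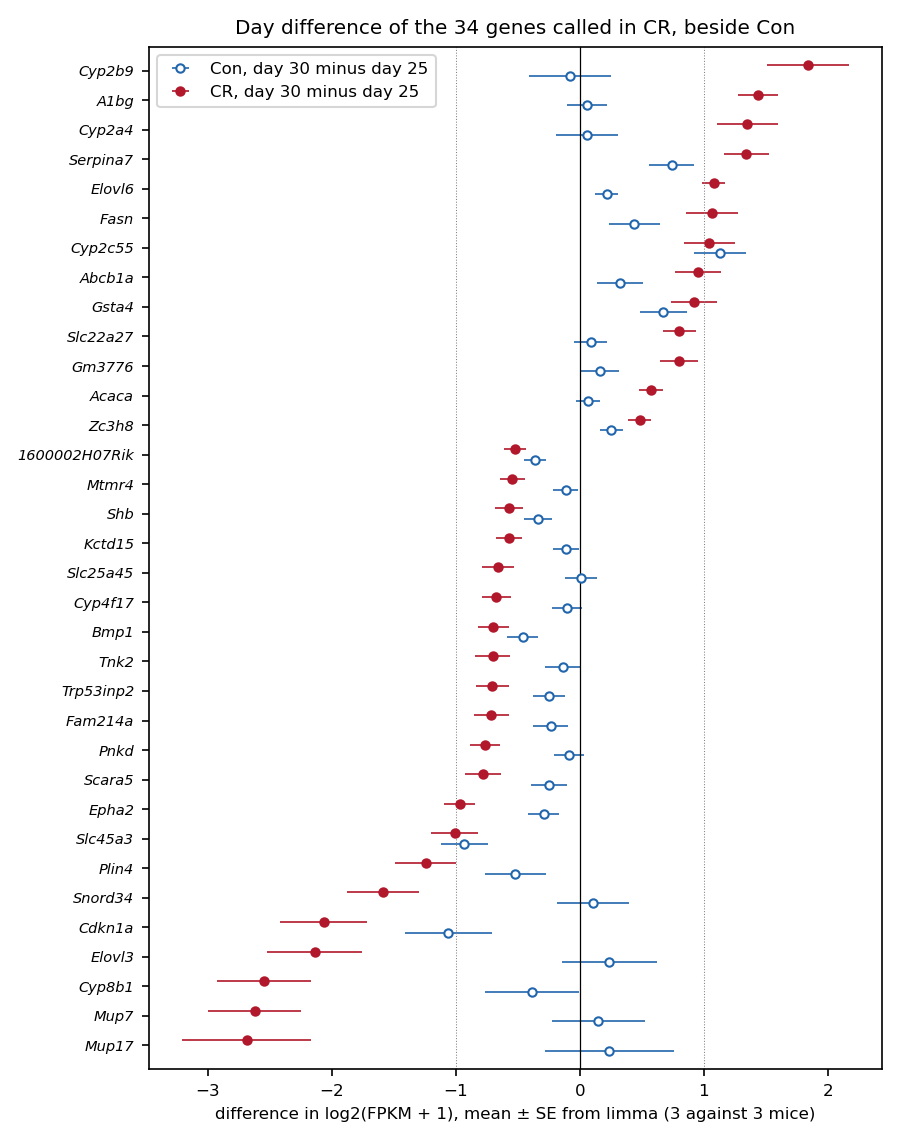
Difference between day 30 and day 25 in log2(FPKM + 1) for the 34 genes called in CR mice, drawn for CR (filled red) and Con (open blue), with bars of 1 SE from limma and 3 mice in each group. The Con value of Cyp2c55 (1.13) and Slc45a3 (-0.93) lies next to the CR value, while Mup7, Mup17 and Elovl3 fell in CR and were at 0.15, 0.24 and 0.24 in Con.

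Elovl6, Fasn and Acaca, 3 of 14 tested enzymes that build or modify fatty acids, rose, and Elovl6 had the smallest p of all genes. Elovl6, the elongase that extends palmitate to stearate, was at 7.12, 6.89 and 6.66 FPKM in the day-25 CR mice and at 14.9, 16.2 and 15.9 in the day-30 CR mice. No mouse of either day came near the other group, and the 6 Con mice were between 5.99 and 8.72. The difference was 1.08 ± 0.09 (SE) (adjusted p = 0.000447, and 0.000545 to 0.00455 when 1 library was left out). In Con mice it was 0.22, and the difference of the 2 day differences was 0.86 (unadjusted p = 1.97e-05, adjusted p = 0.104).

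Fasn, which assembles palmitate from acetyl-CoA and malonyl-CoA, was at 16.1, 19.3 and 17.7 FPKM at day 25 and at 41.9, 29.9 and 44.0 at day 30. The groups did not overlap, and 1 of the 3 day-30 Con mice, at 41.0 FPKM, lay within the range of the day-30 CR mice. The difference was 1.07 ± 0.21 (adjusted p = 0.0857), against 0.44 in Con mice. Acaca, the carboxylase that supplies malonyl-CoA, was at 2.73, 3.11 and 2.42 FPKM at day 25 and at 4.50, 4.25 and 5.03 at day 30. All 3 day-30 mice were above the others (0.58 ± 0.10, adjusted p = 0.0677), and the Con difference was 0.07. Fasn stayed called in 3 and Acaca in 7 of the 12 fits that left out 1 library. Of the 100-base stretches of the longest Acaca transcript, 42.8% also occur in transcripts of Gm5182, so the split of reads between the pair is uncertain.

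The bases before the annotated starts of Elovl6 and Fasn are shown because these genes rose together. They are the 250 bases before the start in RefSeq, build GRCm38.p6, written 5′ to 3′ on the strand of the gene. Capitals mark the CCAAT box (CCAAT or ATTGG, the same box on the other strand), which occurs in 34.5% of 27025 promoters of this length. The Elovl6 region is chr3:129532136-129532385 on the plus strand, and the Fasn region is chr11:120824548-120824797 on the minus strand.
Elovl6: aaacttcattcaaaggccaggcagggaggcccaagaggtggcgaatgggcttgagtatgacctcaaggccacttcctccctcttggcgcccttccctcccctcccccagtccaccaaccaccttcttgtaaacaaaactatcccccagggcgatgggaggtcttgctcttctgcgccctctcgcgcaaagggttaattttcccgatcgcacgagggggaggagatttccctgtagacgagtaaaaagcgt
Fasn: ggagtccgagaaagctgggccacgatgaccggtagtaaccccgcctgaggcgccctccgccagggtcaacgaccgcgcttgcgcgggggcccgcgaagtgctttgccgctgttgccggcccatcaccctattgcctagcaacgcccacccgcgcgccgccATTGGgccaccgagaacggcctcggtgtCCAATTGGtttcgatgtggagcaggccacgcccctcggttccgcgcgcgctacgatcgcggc
The Fasn region holds 3 CCAAT boxes, a pair of which overlap, and the Elovl6 region holds none. The sterol element, searched by a single consensus on both strands, is in neither of them and in 0.0629% of all promoters.

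Besides Elovl6, Fasn and Acaca no member of the lipogenesis list was called higher. Of its 14 enzymes, 12 had a higher mean at day 30, 3 were called higher, and Elovl3 was called lower. Of all tested genes 48.4% were higher in CR mice, 0.123% were called higher and 0.198% were called lower. The median of the 14 enzymes was 0.36 in CR mice and 0.23 in Con mice, beside -0.01 over all genes in CR mice. The 4 regulators and the 9 genes of sugar entry had no call. Among genes named after their values were seen, Thrsp, a small protein that promotes lipogenesis, was at 193, 242 and 138 FPKM at day 25 and 381, 387 and 273 at day 30 (0.88, adjusted p = 0.247). Its Con difference was 0.92. Pklr, the liver pyruvate kinase, was at 36.3, 42.0 and 36.3 FPKM and then 49.7, 59.4 and 58.6 (0.54, adjusted p = 0.1003), just outside the threshold. Scd1, the stearoyl-CoA desaturase, spread from 108 to 400 FPKM at day 25 and from 217 to 364 at day 30, so its groups overlapped. Srebf1, a transcription factor for these enzymes, also overlapped, at 8.52 to 26.7 FPKM and 22.6 to 47.9.

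**Figure D2:**
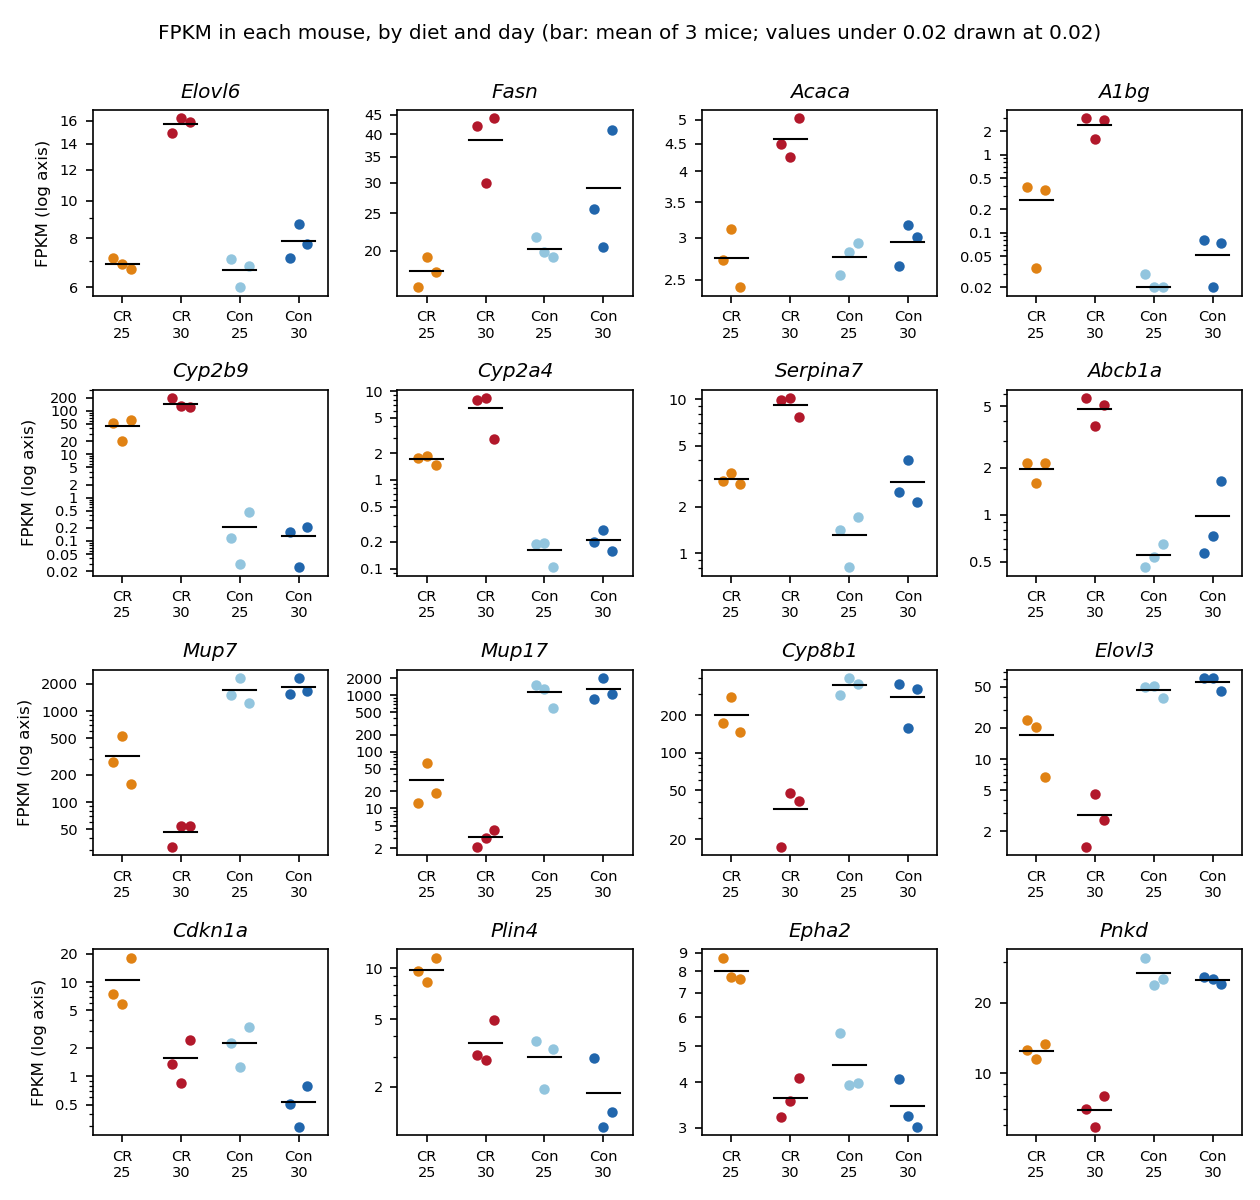
FPKM of 16 called genes in each of the 12 mice on log axes, by diet and day, with points for mice and bars for the mean of 3. The first row shows Elovl6, Fasn, Acaca and A1bg rising from day 25 to day 30 of CR, and the third row shows Mup7, Mup17, Cyp8b1 and Elovl3, which at day 25 of CR were below the Con mice of that day and lower again at day 30.

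Several genes that are normally high in the female and low in the male liver rose between the 2 days. Cyp2b9, a female-type P450 enzyme, was at 51.4, 19.7 and 60.6 FPKM in day-25 CR mice and at 196, 127 and 121 in day-30 CR mice, a difference of 1.84 ± 0.33 (adjusted p = 0.0781). In the 6 Con mice it was between 0.0250 and 0.477 FPKM, so restricted males of both days were far above males fed ad libitum. Cyp2a4, a testosterone hydroxylase of the female liver, went from 1.74, 1.86 and 1.49 FPKM to 7.90, 8.33 and 2.92 (1.35 ± 0.25, adjusted p = 0.0799). Mouse 3 of day 30 was the lowest of its group and still above every day-25 mouse, and the Con mice were at 0.104 to 0.275. A1bg, a secreted glycoprotein of the immunoglobulin family with female-biased liver expression, was at 0.390, 0.0350 and 0.356 FPKM at day 25, which is 15, 1 and 13 reads, and at 2.93, 1.62 and 2.76 at day 30, which is 124, 57 and 117 reads. The groups were well apart (1.44 ± 0.16, adjusted p = 0.00506), and the ratio of read rates was 8.87 (exact 95% interval 6.05 to 13.5, counting error only). A1bg passed the filter on low values only through the day-30 CR mice. Its groups therefore could not overlap, and these values carry no support of their own. The Con difference of A1bg was 0.06, with 0 to 3 reads in each Con mouse.

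Of 9 female-biased targets in the list, 7 were tested and all 7 had a higher mean at day 30 in CR mice, 3 of them called. Over all tested genes 48.4% were higher in CR mice and 0.123% were called higher. In Con mice 3 of 7 were higher and the median was -0.02. Cyp2b13, named after its values were seen, was at 0.0510, 0 and 0.0800 FPKM in day-25 CR mice and at 41.0, 2.92 and 1.49 in day-30 CR mice (2.83, adjusted p = 0.187). A1bg and Cyp2b13 passed the filter on low values only through the day-30 CR mice and so had to be higher there, as had Slc22a27 and Gm3776 outside the list. Cux2 and Cyp2c40, also named after their values were seen, had groups that overlapped, at 0.26 and 0.30. Sult2a1 and Cyp3a41a did not pass the filter.

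Of the male-type genes, 2 Mups and Elovl3 were called lower. Mup7, a lipocalin that carries pheromones into the urine, was at 277, 536 and 157 FPKM in day-25 CR mice and at 32.1, 53.9 and 54.4 in day-30 CR mice. All day-30 mice were lower than all day-25 mice, and the Con mice of both days were at 1243 to 2317. The difference was -2.62 ± 0.38 (adjusted p = 0.0278, called in 10 of 12 fits that left out 1 library), and the Con difference was 0.15. CR mice held 19.1% of the Con mean at day 25 and 2.55% at day 30. Mup17 was at 12.6, 63.9 and 18.7 FPKM at day 25, with mouse 2 well above the others, and at 2.10, 2.99 and 4.25 at day 30 (-2.69 ± 0.52, adjusted p = 0.0857, called in 5 of 12 such fits). The Con mice ranged from 587 to 2018.

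Of 21 Mup genes in the table, 15 were tested, none of the 15 had a higher mean at day 30 of CR, 2 were called lower, and 11 had groups that did not overlap, beside the 8.39% of all genes whose day-30 CR mice were all lower. Over all tested genes 48.4% were higher in CR mice and 0.198% were called lower. The median of the 15 Mups was -0.86 in CR mice and 0.24 in Con mice. Mup14 and Mup3 were named after their values were seen. Mup14 was at 4.48, 16.8 and 2.98 FPKM and then 0.140, 1.79 and 0.794 (-2.03, adjusted p = 0.171). Mup3, the most abundant, overlapped, at 3179, 3807 and 1517 FPKM and then 922, 2532 and 1321. The summed FPKM of all 21 was 4052, 5340 and 2200 in day-25 CR mice and 1079, 2935 and 1701 in day-30 CR mice. Mouse 3 of day 25 thus lay between the day-30 mice, and the lowest Con mouse was at 10116. These genes are near copies. Of the 100-base stretches of the longest transcript, 81.6% in Mup7 and 59.4% in Mup17 also occur in transcripts of other genes, 16 genes in each case, so the values of single copies are uncertain.

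The promoters of the 2 called Mup genes are shown because they share much of their sequence. In the 250 bases before the RefSeq start (GRCm38.p6, 5′ to 3′, CCAAT box in capitals), Mup7 is chr4:60070476-60070725 and Mup17 is chr4:61595833-61596082, both on the minus strand.
Mup7: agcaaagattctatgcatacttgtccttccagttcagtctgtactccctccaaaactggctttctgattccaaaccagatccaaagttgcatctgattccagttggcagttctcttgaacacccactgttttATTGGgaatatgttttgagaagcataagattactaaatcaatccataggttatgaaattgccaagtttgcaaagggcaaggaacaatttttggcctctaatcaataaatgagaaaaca
Mup17: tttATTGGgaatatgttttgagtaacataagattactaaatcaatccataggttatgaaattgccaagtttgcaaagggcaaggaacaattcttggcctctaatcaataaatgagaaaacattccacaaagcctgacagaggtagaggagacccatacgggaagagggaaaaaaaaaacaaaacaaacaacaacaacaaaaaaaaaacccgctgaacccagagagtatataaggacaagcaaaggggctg
Shifted by 129 bases, 118 of the 121 overlapping bases are identical (97.5%), and the longest run without a difference is 66 bases. The CCAAT box of each lies inside the shared stretch, 118 bases before the start of Mup7 and 247 before that of Mup17.

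Male-biased targets outside the Mup family had 10 tested members, of which 1 had a higher mean at day 30 of CR and 1 was called, with a median of -1.11 in CR mice and 0.86 in Con mice. Over all tested genes 48.4% were higher in CR mice and 0.198% were called lower. The called member of the male-biased list was Elovl3, an elongase of very long fatty acids that also stands in the lipogenesis list. It was at 24.1, 20.5 and 6.66 FPKM at day 25 and at 1.42, 4.56 and 2.61 at day 30 (-2.14 ± 0.38, adjusted p = 0.0781), and the Con mice were at 39.2 to 60.9. Mouse 3 of day 25 was close to the day-30 mice. Serpina1e, named after its values were seen, ran from 1620 to 111 FPKM among day-25 mice and from 121 to 6.81 among day-30 mice, so its groups overlapped in spite of a difference of -3.85 (adjusted p = 0.171). Hsd3b5, Slco1a1, Selenbp2 and Cyp4a12a, named in the same way, overlapped as well. The summed FPKM of the 10 male-biased targets was 1324, 2448 and 497 in the day-25 mice, then 219, 572 and 322. Mouse 3 of day 25 thus lay between the day-30 mice, and mouse 1 of day 30 was the lowest.

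The genes of growth hormone signalling themselves had no call, near the share of 0.321% over all tested genes. Those given here were named after their values were seen. Ghr, the receptor, was at 142, 132 and 88.5 FPKM and then 84.5, 120 and 101, and Igf1 was at 107, 78.7 and 83.1 and then 76.3, 88.4 and 92.7. Both overlapped. Igfals, which binds circulating IGF1 complexes, was at 42.3, 49.6 and 35.1 FPKM and then 26.6, 34.4 and 25.4, without overlap but not called (-0.54, adjusted p = 0.315).

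**Figure D3:**
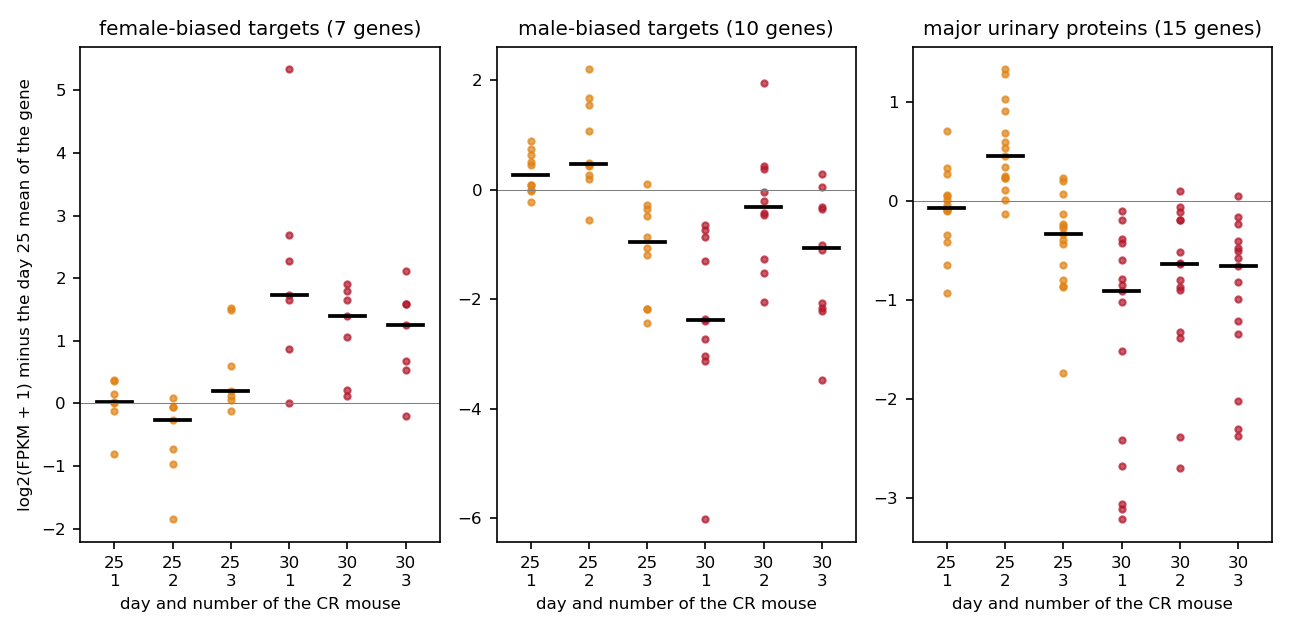
log2(FPKM + 1) in each CR mouse minus the gene's mean at day 25, for the tested members of 3 lists, with orange points for day 25, red points for day 30 and a black bar at the median of the genes in that mouse. The female-biased medians of the day-30 mice are above those of the day-25 mice, but A1bg and Cyp2b13 passed the filter only through day 30 and A1bg is the median gene of the list, and in the male-biased list mouse 3 of day 25 lies among the day-30 mice.

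Bile acid synthesis held the next large fall. Cyp8b1, the sterol 12-alpha-hydroxylase that directs synthesis to cholic acid, was at 176, 284 and 147 FPKM in day-25 CR mice and at 17.4, 47.3 and 40.8 in day-30 CR mice. The nearest mice of the 2 days differed 3.11-fold, and the difference was -2.55 ± 0.38 (adjusted p = 0.0310, called in 10 of 12 fits that left out 1 library). The Con mice were at 292, 402 and 362 FPKM and then 361, 160 and 329 (-0.38). CR mice held 57.4% of the Con mean at day 25 and 12.4% at day 30. Of the 11 synthesis enzymes, Cyp8b1 was the only call in CR mice, beside 0.198% of all tested genes called lower. Cyp7a1, the rate-limiting enzyme, was at 51.5, 65.2 and 24.0 FPKM and then 17.0, 25.6 and 29.4, with overlap (-0.86, adjusted p = 0.490), and was at -0.74 in Con mice. Cyp2c70, which makes muricholic acids, was at 85.5, 79.2 and 95.5 FPKM and then 161, 163 and 172, without overlap (0.93, adjusted p = 0.184), and was at 1.28 in Con mice. Both genes were named after their values were seen.

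Plin4, a perilipin that coats lipid droplets, fell from 9.71, 8.29 and 11.6 FPKM to 3.08, 2.86 and 4.97 (-1.24 ± 0.24, adjusted p = 0.0857), and was at -0.52 in Con mice. It was the only call among 20 tested lipid droplet genes, whose median was -0.22 in CR mice and -0.10 in Con mice. The share called lower in CR mice over all tested genes was 0.198%. Plin5, a perilipin of oxidizing tissues named after its values were seen, was at 49.0, 51.4 and 74.6 FPKM and then 32.3, 26.7 and 37.6 (-0.82, adjusted p = 0.183). No gene of fatty acid oxidation was called, near the share of 0.321% over all tested genes. Of 43 tested, 8 had a higher mean at day 30 and the median was -0.19, against 7 and -0.15 in Con mice. Slc22a5, the carnitine transporter, came nearest, at 12.7, 10.9 and 13.7 FPKM and then 7.61, 8.0 and 8.70 (-0.56, adjusted p = 0.102). Cpt2, the inner carnitine palmitoyltransferase, was at 60.0, 65.5 and 58.3 FPKM and then 38.5, 47.0 and 39.4 (-0.55, adjusted p = 0.120). Both had groups that did not overlap.

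Serpina7, thyroxine-binding globulin, went from 2.95, 3.29 and 2.81 FPKM to 9.85, 10.2 and 7.71 (1.34 ± 0.18, adjusted p = 0.0176, called in 10 of 12 fits that left out 1 library, against 4 for Abcb1a, 3 for Cyp2c55 and 1 for Gsta4). Con mice were at 1.41, 0.810 and 1.72 and then 2.49, 4.01 and 2.15 (0.74, not called), and the groups overlapped in neither diet. Abcb1a, the P-glycoprotein efflux pump, went from 2.15, 1.6 and 2.16 FPKM to 5.62, 3.70 and 5.06 (0.95 ± 0.18, adjusted p = 0.0857), with 0.32 in Con mice. Cyp2c55, a P450 enzyme, went from 0.859, 1.32 and 1.11 FPKM to 3.25, 4.96 and 2.14 (1.05 ± 0.21, adjusted p = 0.0886), and its Con difference of 1.13 was as large. Gsta4, a glutathione transferase that removes products of lipid peroxidation, went from 45.7, 58.2 and 80.6 FPKM to 140, 103 and 103 (0.92 ± 0.19, adjusted p = 0.0988), with 0.67 in Con mice. These 2 were the calls among 34 tested xenobiotic genes, of which 23 had a higher mean in CR mice and 22 in Con mice. Of all tested genes 0.123% were called higher in CR mice, and 48.4% had a higher mean in CR mice and 54.3% in Con mice.

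The other rises were small or rested on few reads. Slc22a27 and Gm3776 passed the filter on low values only through the day-30 CR mice and so had to be higher there. Slc22a27, an organic anion transporter, went from 0.508, 0.327 and 0.535 FPKM (11 to 23 reads) to 1.5, 1.8 and 1.32 (66 to 75 reads). The difference was 0.80 ± 0.13 (adjusted p = 0.0677). Gm3776, which shares 85.5% of its 100-base stretches with other genes, Gsta1 and Gsta2 among them, went from 4 to 12 reads in a mouse to 19 to 38 (0.80 ± 0.15, adjusted p = 0.0857). Zc3h8, a zinc finger protein named after its values were seen, had the smallest called difference, from 2.46, 2.77 and 2.40 FPKM to 4.16, 4.2 and 3.5 (0.48 ± 0.09, adjusted p = 0.0857), and the nearest mice of the 2 days differed by a factor of 1.26.

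Cdkn1a, the cell cycle inhibitor p21, fell from 7.52, 5.79 and 18.1 FPKM to 1.35, 0.862 and 2.45 (-2.06 ± 0.35, adjusted p = 0.0677). Mouse 3 of day 25 was the highest, and the groups did not overlap. It was lower at day 30 in Con mice too, at 2.25, 1.25 and 3.36 and then 0.512, 0.295 and 0.790 (-1.06, unadjusted p = 0.0102). Of 14 tested cell cycle genes it was the only call, beside 0.198% of all tested genes called lower in CR mice. The filter left out 26 of the 40 in the list. No gene of replication (7 of 15 tested) or mitosis (2 of 19 tested) was called, so mitosis was hardly measured. Epha2, a receptor tyrosine kinase for ephrins, fell from 8.72, 7.72 and 7.64 FPKM to 3.21, 3.55 and 4.09 (-0.97 ± 0.13, adjusted p = 0.0164). At day 30 the CR mice were within the range of the Con mice (3.03 to 5.44), and the call held in 10 of 12 fits that left out 1 library, against 8 for Cdkn1a and Pnkd and 6 for Slc45a3 and Scara5. Slc45a3, a solute carrier, fell from 11.7, 10.6 and 17.8 FPKM to 6.43, 5.91 and 5.59 (-1.01 ± 0.19, adjusted p = 0.0799), and its Con difference, not called, was -0.93. Pnkd went from 12.5, 11.5 and 13.4 FPKM to 7.0, 5.91 and 7.99 (-0.77 ± 0.12, adjusted p = 0.0434), while Con mice were at 23.9 to 31.2 on both days (-0.09). Scara5, a ferritin receptor, went from 1.40, 1.53 and 1.17 FPKM to 0.170, 0.435 and 0.544 (-0.78 ± 0.15, adjusted p = 0.0799).

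The other called falls ran from -0.71 to -0.52, and Fam214a, Tnk2, Shb and Slc25a45 stayed called in 3 of 12 fits that left out 1 library. They were Fam214a, Trp53inp2 (an autophagy factor), Tnk2 (a tyrosine kinase), Bmp1 (a protease that trims procollagen), Cyp4f17, Slc25a45 (a mitochondrial carrier), Kctd15, Shb (a signalling adaptor), Mtmr4 (a phosphoinositide phosphatase) and 1600002H07Rik. Of these, Tnk2, Bmp1, Cyp4f17, Slc25a45, Kctd15, Shb, Mtmr4 and 1600002H07Rik were named after their values were seen. Bmp1 was the most even, at 40.9, 44.7 and 42.7 FPKM and then 26.8, 25.6 and 25.4 (-0.70 ± 0.13, adjusted p = 0.0781). Trp53inp2 was the most abundant, at 91.0, 80.2 and 70.7 FPKM and then 40.0, 52.8 and 55.0 (-0.71 ± 0.13, adjusted p = 0.0799). The last called fall, Snord34, is a small nucleolar RNA outside the rule for named genes that rests on 3, 2 and 5 reads at day 25 and 0, 0 and 1 at day 30, a ratio of read rates of 0.0863 (exact 95% interval 0.00199 to 0.607).

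Most other pathways had no call between the 2 days. Over all tested genes only 0.321% were called, so the lack of a call does not set these lists apart. Of 32 cholesterol genes none was called in either diet, with a median of -0.03 in CR mice and 0.49 in Con mice, and 28 had a higher mean at day 30 in Con mice but 15 in CR mice. Whether the diets differed over this list was not tested. No gene was called among 34 of mTORC1 and amino acid sensing (median -0.01), 60 translation factors (-0.03), 64 cytosolic ribosomal proteins (0.00), 76 mitochondrial ribosomal proteins (0.01), 75 of the respiratory chain (0.06), 38 of the proteasome (0.03), 37 of autophagy and the lysosome (-0.06), 51 of amino acid breakdown and the urea cycle (-0.01), 23 of the integrated stress response (-0.11), 29 of the acute phase (0.06), 35 of complement and coagulation (-0.09) and 18 of sirtuins and NAD (0.00). Of 29 chaperones and translocation genes of the endoplasmic reticulum 21 had a higher mean in CR mice (median 0.13) and 27 in Con mice (0.23), and Sec61b, a subunit of the translocon, came closest to a call, at 20.8, 32.6 and 26.1 FPKM and then 46.0, 45.0 and 37.8 (0.69, adjusted p = 0.1005). Gbe1, the glycogen branching enzyme, was at 36.9, 30.2 and 34.1 FPKM and then 44.9, 52.4 and 58.1 (0.60, adjusted p = 0.101), and Slc2a2, the liver glucose transporter, at 110, 104 and 93.1 and then 143, 165 and 181 (0.66, adjusted p = 0.115). Both had groups that did not overlap. The metallothionein Mt2 was at 444, 461 and 749 FPKM and then 136, 203 and 222 (-1.54, adjusted p = 0.365), and its Con difference was -1.27. Hamp2, a hepcidin of iron control, was at 113, 60.3 and 74.2 FPKM and then 497, 143 and 176 (1.53, adjusted p = 0.217), with mouse 1 of day 30 far above the rest.

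**Figure D4:**
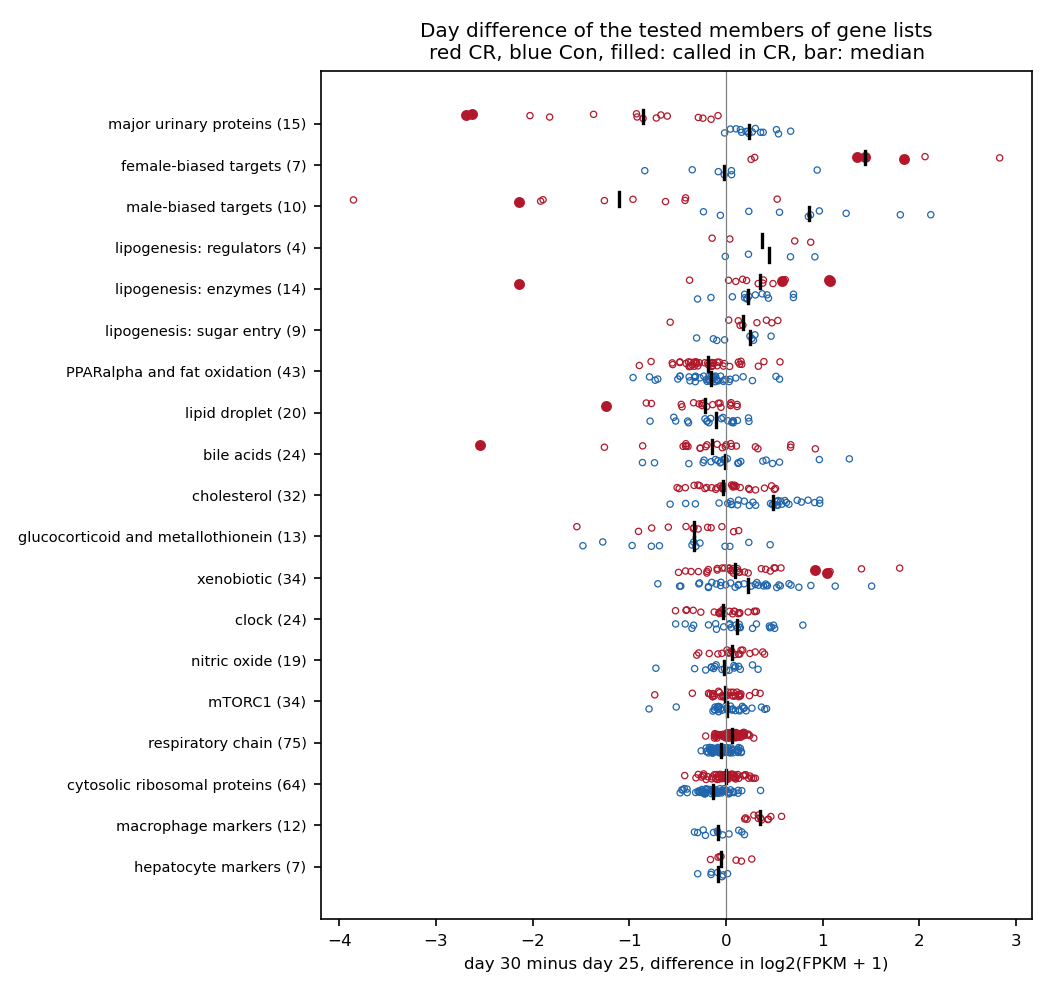
Day 30 minus day 25 in log2(FPKM + 1) for the tested members of 19 lists (number in brackets), red for CR and blue for Con, with filled points for genes called in CR and a bar at the median. The medians of the Mup and male-biased lists lie below 0 in CR and above 0 in Con. The female-biased median lies above 0 in CR, but A1bg, its median gene, and Cyp2b13 passed the filter only through the day-30 CR mice. The clock, mTORC1 and ribosomal lists have CR medians of -0.03, -0.01 and 0.00 and Con medians of 0.11, 0.01 and -0.13.

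The circadian clock genes had no call between the 2 days of CR, near the share of 0.321% called over all tested genes. Of 24 tested, 11 had a higher mean at day 30, none was called (lowest adjusted p = 0.565), and the median was -0.03, against 0.11 in Con mice. Differences ran from -0.52 for Ciart to 0.32 for Wee1. Clock and Arntl, the activators, were at 3.15, 2.23 and 3.61 FPKM and then 2.40, 2.44 and 3.12, and at 0.909, 0.611 and 2.64 and then 1.01, 0.555 and 0.776. Rora (0.14), which drives Arntl, overlapped between the days. Among the repressors Per1 was at 14.2, 15 and 16.6 FPKM and then 16.7, 13.5 and 14.3, and Nr1d1 was at 8.79, 6.96 and 8.23 and then 9.91, 8.94 and 9.70 (0.23, adjusted p = 0.673). Nr1d1 was higher at day 30 without overlap, and Ciart, Cry2 and Tsc22d3 were lower without overlap. These were 1 and 3 of the 24 tested, and 14.7% of all tested genes had no overlap. The lack of overlap therefore does not set the clock genes apart. The Con mice had Nr1d1 at 39.8 to 57.4 FPKM. The differences of Per2 (-0.07), Per3 (0.04), Cry1 (-0.02), Cry2 (-0.07), Nr1d2 (0.30), Nfil3 (-0.41), Bhlhe40 (0.29) and Bhlhe41 (-0.03) were not called. Neither were those of the output factors Dbp (0.14), Tef (0.07) and Hlf (-0.26) and of the clock-controlled genes Usp2 (-0.07), Noct (-0.05), Nampt (0.13), Tsc22d3 (-0.41) and Gys2 (0.08).

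The study followed nitric oxide in restriction, and the mRNAs of its synthases were low. Nos1 was at 0 in all 6 CR mice. Nos2, the inducible synthase, was at 0 in the 3 day-25 CR mice and at 0.0110, 0 and 0.0230 FPKM in the day-30 CR mice. Nos3, the endothelial synthase, was at 0.576, 0.729 and 0.862 FPKM and then 0.586, 0.678 and 0.586, so all 3 synthases stayed below the filter. Nostrin (0.09), Nosip (0.02) and Cav1 (0.25), which bind the synthases, were not called. None of the 19 tested genes of the list was called, near the share of 0.321% over all tested genes. Their median was 0.06 in CR mice and -0.02 in Con mice. Qdpr, which regenerates tetrahydrobiopterin, was at 192, 191 and 181 FPKM and then 260, 267 and 221 (0.40, adjusted p = 0.349). Gucy1b3, a subunit of the guanylate cyclase that senses nitric oxide, was at 0.909, 0.868 and 1.03 and then 1.32, 1.44 and 1.41 (0.30, adjusted p = 0.383).

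The test of whether the day difference itself differed between the diets called 1 gene of 10593 (0.00944%), the small nucleolar RNA Snord55. None of the 34 genes called in CR mice passed it at an adjusted p under 0.1, and 24 of them had an unadjusted p under 0.05, beside 3.46% of all genes. These genes were chosen on the CR side of that contrast. After Snord55 and Elovl6 the smallest p-values belonged to A1bg (1.38, adjusted p = 0.176), to Snord45c (-2.84, adjusted p = 0.206), which rests on 0 to 9 reads in a mouse, and to Col5a3, a collagen chain. The direction of A1bg in CR mice was fixed by the filter, which it passed only through the day-30 CR mice. Col5a3 was at 2.62, 2.66 and 1.94 FPKM and then 1.65, 1.71 and 1.49 in CR mice, and at 4.89, 3.69 and 3.88 and then 6.40, 6.67 and 5.93 in Con mice (difference of the differences -0.89, adjusted p = 0.206). So for Fasn, Mup7, Cyp8b1 and the other called genes a difference between the diets in the change over 5 days was not shown at this threshold.

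The 34 called genes lay on 14 chromosomes. The closest neighbours were Gsta4 and Gm3776, 47.8 kb apart on chr9, and Cyp2b9 and Cyp2a4, 96.5 kb apart on chr7, and both pairs rose. Mup7 and Mup17 lay 1521 kb apart on chr4 and both fell. RefSeq promoters were matched for 26 of the 34, and 22 of the 26 begin at the start given in the table (the Abcb1a region lies 93001 bases from it and the Slc25a45 region 644). The E-box CACGTG, the site of the clock activators, was in 2 of the 26 (A1bg and Fam214a), beside 6.05% of 27025 promoters of the same length, and the CCAAT box was in 9, beside 34.5%. The D-box (TTATGTAA or TTACATAA) and the ROR and glucocorticoid elements, the latter by a single consensus each, were in none, beside 0.862%, 0.185% and 0.0037% of all promoters, with both strands searched. The 250 bases before the start of A1bg, chr15:60921271-60921520 on the minus strand, are shown as those of a called rise with an E-box, which is in capitals.
A1bg: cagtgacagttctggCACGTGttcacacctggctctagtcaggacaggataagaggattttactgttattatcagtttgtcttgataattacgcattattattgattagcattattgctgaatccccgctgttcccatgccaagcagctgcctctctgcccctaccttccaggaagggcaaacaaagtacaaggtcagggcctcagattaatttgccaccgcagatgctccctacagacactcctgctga
The E-box lies 235 bases before the start.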

How the data were processed

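Liver RNA of 12 mice in 4 groups of 3 (CR and Con at day 25 and day 30) was sequenced as 100-base paired ends on a single lane. The submitters' processing notes name CASAVA 1.8.2, FastQC, BWA, DESeq2 and the mm10 build. The authors deposited FPKM values, whose header gives the HOMER command used, which counts exon reads of 1 transcript per gene and sets no strand option. Sense and antisense reads therefore cannot be told apart. Reads per gene and library depth (15748611 to 23349281 reads) were recovered from the steps of 1396 to 1500 low values per library, 100% of which were whole within 0.1 of a read. This depth limits the precision of genes with few reads.

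From the deposited FPKM, log2(FPKM + 1) was fitted in limma 3.58.1 (R 4.3.3) as 1 model of the 4 groups with a trend on expression, for genes that reached 1 FPKM in no fewer than 3 libraries. The contrasts were the day difference in CR, the same in Con, and their difference, with 2-sided p-values adjusted by Benjamini-Hochberg over all 10593 genes. Of 24537 genes in the table, 18362 were above 0 in a library. The p-values measure the spread between these libraries only. The 3 columns of day-30 Con mice were assigned to their group but not to single samples.

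The comparison, gene lists and rules were chosen with earlier results of these data known. Named genes were the 12 largest rises and 12 largest falls among called protein-coding genes without overlap, up to 4 called members of each list or, without any, at most 2 with the smallest p, all tested clock members, the tested nitric oxide synthases and their regulators, and the 5 smallest p-values of the difference between diets. The text marks genes outside this rule, and a few members of the lists are not reported here. Promoters are from RefSeq (GRCm38.p6) and stretches of 100 bases were matched among GENCODE M21 transcripts. Figures and tables used Python 3.11.15, pandas 2.3.3 and matplotlib 3.10.9. Other settings tried were the pseudocount, filter, scaling, moderation, the libraries in the model, the thresholds, voom on the recovered reads and leaving out each library.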

Additional observations from a re-analysis of the deposited data

Results flagged for a closer look

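The day difference of Snord55, a small nucleolar RNA of 77 bases, differed between the diets in the interaction test of limma (-1.68 on the log2(FPKM + 1) scale, adjusted p = 0.0833). In CR mice it was at 1.23, 1.65 and 1.29 FPKM at day 25 and at 0.557, 0.668 and 0.556 at day 30 (-0.58). In Con mice it was listed at 0 in all 3 libraries of day 25 and at 0.634, 1.83 and 1.15 FPKM at day 30 (1.10). These values stand for 2 reads in each day-25 CR mouse, 1 read in each day-30 CR mouse, none in the day-25 Con mice and 1, 3 and 2 reads in the day-30 Con mice. The ratio of its read rates between the days of CR was 0.431, with an exact 95% interval of 0.0698 to 2.02 for counting error only.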

How the results depend on the processing

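All 34 genes called in CR mice kept the sign of their difference in every setting in which they were tested. This was largely fixed in advance, since the CR mice of the 2 days did not overlap in any of the 34. Leaving out a library or changing the pseudocount, filter or moderation could therefore not reverse a sign, and the kept signs add no support. In the counts that follow, at least 2-fold means an absolute difference of at least 1 on the fitted log2 scale, not in FPKM itself. The number called in CR mice, 34, was 21 with a pseudocount of 0.1, 8 without a filter (3 of at least 2-fold), 7 at an adjusted p under 0.05, and 51 after median-ratio scaling, which kept all 34. The 6 CR libraries alone gave 28, of which 14 were among the 34. The count ran from 2 to 45 (2 to 18 of at least 2-fold) when 1 library was left out. In Con mice, with 0 called, 1 gene was called, of at least 2-fold, with a pseudocount of 0.1 or 0.5, after TPM scaling and with robust moderation, and 0 to 22 (0 to 10 of at least 2-fold) without 1 library. The difference between the diets, with 1 called, gave 3 genes (2 of at least 2-fold) with a pseudocount of 0.1 or robust moderation. It gave 0 with a filter at 5 FPKM, after quantile scaling, by voom and at an adjusted p under 0.05, 0 of at least 2-fold without a filter, and 0 to 5 (0 to 4) without 1 library. The cause of these shifts was not tested. The replicate numbers did not pair the CR mice of the 2 days, whose same-numbered deviations had correlations of -0.382, 0.299 and 0.0780. Same-numbered CR and Con mice of day 25 did deviate together (0.368, 0.306 and 0.106, against -0.287 to 0.0134 for different numbers), which the labels do not account for. A fit with the replicate number as a block, over the 9 numbered libraries, called 45 genes (23 of at least 2-fold) in CR mice, beside 47 (19) for the same libraries without the block. Of the values of named genes, 26 changed sign, all of them in fits that left out 1 library and for genes that were not called: Arntl (-0.58 to 0.013), Bhlhe41 (-0.082 to 0.031), Cry1 (-0.18 to 0.14), Dbp (-0.16 to 0.40), Gys2 (-0.023 to 0.16), Hba-a1 (-0.73 to 0.19), Mylpf (-0.45 to 0.066), Noct (-0.15 to 0.092), Nosip (-0.12 to 0.21), Per1 (-0.12 to 0.018), Per3 (-0.077 to 0.21), Rora (-0.068 to 0.29), Sox9 (-0.26 to 0.088) and Usp2 (-0.11 to 0.0017). No planned setting was left out, but a filter at 5 FPKM gave no median for the muscle markers. Genes with few reads, such as Snord34 and Snord55, are limited by depth.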
